A study of Mus musculus with 6 samples.

Results

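The mitosis genes are 31 genes of the G2/M phase and of mitosis, taken as a list by name from the 22483 genes of the deposited mouse muscle stroma table. All 31 were found in the table, and all 31 passed the filter on low values that left 15532 genes for testing. The sort divided stroma from skeletal muscle of Swiss white mice (8 to 12 weeks old) by 2 surface proteins, CD140a, a PDGF receptor made by Pdgfra, and Sca1, the product of Ly6a. The 3 resulting subpopulations are named CD140a(-)/Sca1(+), then CD140a(+)/Sca1(-), and the double-positive CD140a(+)/Sca1(+). The injured muscle was taken 3 days after cardiotoxin (20 uM), a venom protein that destroys muscle fibers, and the control was the untreated contralateral muscle. Cells with CD45, CD31 or CD11b, the surface markers of leukocytes, endothelium and myeloid cells, had been removed by the gate in both states. Each subpopulation has 1 library in each of 2 states, 6 in all, and the sources used here do not give the number of mice in a library. No subpopulation was measured again in the same state, so the spread behind every test is that among the 3 subpopulations.

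A cell enters mitosis when Cdk1, bound to cyclins A and B, phosphorylates proteins throughout the cell. Kinetochores then attach chromosomes to the spindle, the spindle checkpoint holds back the anaphase-promoting complex (APC/C) until attachment is complete, and the central spindle and contractile ring divide the cell. Most of these genes are nearly silent in resting cells, where the DREAM complex represses them. They are switched on in G2 by MuvB together with B-Myb and FoxM1. Fibro-adipogenic progenitors, the main CD140a cells of muscle stroma, are known to divide in the first days after injury.

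Values are given as normalized counts, recovered from the variance-stabilized log2 values of the table, and a gene without a read in a library is called listed at 0. The estimated depth ran between 2094366 and 14173514 reads in injured libraries and between 2346665 and 11984385 reads in control libraries, with the deepest pair in CD140a(-)/Sca1(+). The injured CD140a(+)/Sca1(-) library stood apart. It listed 69.1% of all genes at 0, against 28.2% to 39.0% in the other 5 libraries, and it listed at 0 928 of 5274 genes that had at least 20 normalized counts in each of the other 5. The gate genes did not follow the labels everywhere: Pdgfra stood at 335, 203 and 1240 normalized counts in injured CD140a(-)/Sca1(+), CD140a(+)/Sca1(-) and CD140a(+)/Sca1(+) cells, against 211, 33.6 and 26.3 in the matching control cells, so among controls it was highest in the library labelled CD140a(-). Ly6a stood at 1177, 2.09 and 4099 in the injured cells, against 5850, 70.4 and 253 in the control cells, in the same order of subpopulations.

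Summed over the 31 genes, the mitosis transcripts were higher in injured than in control cells in each subpopulation, and by the most in CD140a(+)/Sca1(+) as deposited. With 75th percentile scaling that order turned, with a log2 ratio of 4.30 in CD140a(+)/Sca1(-) and 2.74 in CD140a(+)/Sca1(+). In CD140a(+)/Sca1(+) the sum was 3751 normalized counts in injured cells, against 402 in control cells, a ratio of 9.34 with a 95% interval of 8.49 to 10.3. In CD140a(+)/Sca1(-) it was 1260 in injured cells and 350 in control cells (ratio 3.60, 3.25 to 3.99), and in CD140a(-)/Sca1(+) it was 993 in injured cells and 452 in control cells (ratio 2.20, 2.10 to 2.30). These intervals are approximate, because they treat the sums as whole reads and 17 of the 31 genes did not lie on whole reads. Like every interval here they cover counting error only, not the spread between animals or sorts. As a share of all normalized counts the genes took 0.0479%, 0.0613% and 0.174% in injured CD140a(-)/Sca1(+), CD140a(+)/Sca1(-) and CD140a(+)/Sca1(+) cells, against 0.0201%, 0.0168% and 0.0194% in control cells. The 3 control libraries were thus close to each other, and the injured libraries were spread over a wider range. The study reports its lowest sorting enrichment for control CD140a(+)/Sca1(+) cells, and what this does to the ratio of that subpopulation was not tested. Without Cdk1, Ccna2 and Tpx2, which had the highest counts over the 6 libraries together, the ratios of injured to control were 1.73, 3.38 and 6.77. In these bulk sorts, more dividing cells and more mitosis mRNA per cell cannot be told apart.

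**Figure D1:**
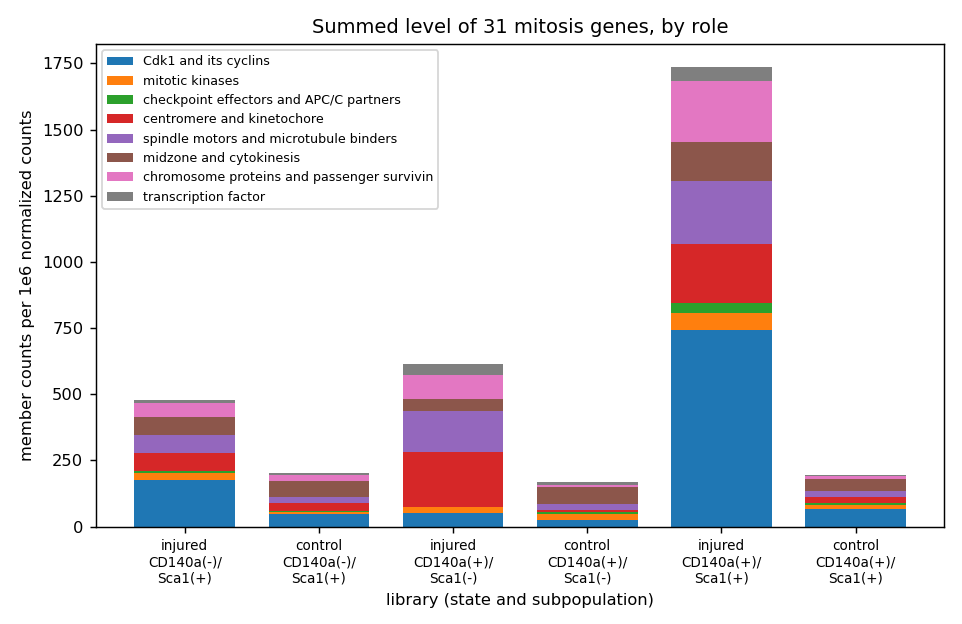
Summed level of the 31 mitosis genes as members per 1e6 normalized counts (y axis, from 0) in each of the 6 libraries (x axis, injured left of control for each subpopulation), stacked by role. The injured CD140a(+)/Sca1(+) bar reaches 1737, against 194 in its control, and the other injured bars reach 479 in CD140a(-)/Sca1(+) and 613 in CD140a(+)/Sca1(-), against 201 and 168 in their controls.

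The injury comparison asked which of these genes differed between injured and control muscle across the subpopulations. With the linear model of limma and subpopulation as block, 6 of the 31 genes rose at least 3-fold with an unadjusted p under 0.05, one of the 2 thresholds in the study's text: Top2a, Cdk1, Tpx2, Cenpe, Foxm1 and Aurka. Of all genes tested, 2.3% were called higher by this rule. At the other threshold, an unadjusted p under 0.01 with 3-fold, the first 4 were called and Foxm1 and Aurka were not, beside 0.927% of all genes. None of the 31 was called lower, by a rule that called 3.46% of all genes lower. The 6 are also the members whose 3 injured libraries all lay above all 3 control libraries, a separation found in 4.18% of all genes, and no member had its injured libraries all below, against 11.2% of all genes. Unadjusted p values of the 6 ran between 0.000710 and 0.0252 in limma. After Benjamini-Hochberg adjustment over the 15532 genes the lowest adjusted p of any gene was 0.192, so 0 of 31 members and 0 of all genes passed 0.05, while at an unadjusted p under 0.05 alone 6 members were higher and 0 lower, beside 2.93% and 5.06% of all genes. The median difference of the 31 was 0.74 on the deposited log2 scale, injured minus control, beside -0.33 for all genes tested. The member counts depended on the CD140a(+)/Sca1(-) pair: without it 12 members were called higher, beside 2.94% of all genes, and the cyclin genes Ccna2 and Ccnb1 and also Aurkb, Cenpa, Birc5, Nuf2 and Anln entered while Aurka dropped out. In that fit Cdk1 had an adjusted p of 0.0197 and Top2a of 0.0495 in limma. Among the fits without a pair this held only for that one. The adjusted p of both genes was 0.836 without the CD140a(-)/Sca1(+) pair and 0.670 without the CD140a(+)/Sca1(+) pair (limma). The adjusted p also depended on the variance prior. With all 6 libraries and a prior that follows the mean level, it was 0.0311 for Cdk1 and 0.0774 for Top2a (limma with trend).

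Cdk1, the kinase that drives entry into mitosis, is on chr10:69335146-69352938 (GRCm38). Cdk1 stood at 219, 104 and 845 normalized counts in injured CD140a(-)/Sca1(+), CD140a(+)/Sca1(-) and CD140a(+)/Sca1(+) cells, against 12.7, 9.03 and 41.0 in control cells. Every injured library was above every control library, and the lowest injured value, in CD140a(+)/Sca1(-), was still above the highest control value, in CD140a(+)/Sca1(+). The difference was 3.32 on the log2 scale (standard error 0.53, adjusted p = 0.288, limma).

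Top2a, the topoisomerase that untangles sister chromatids, is on chr11:98992943-99024189. Top2a had 70.0, 185 and 216 normalized counts in injured CD140a(-)/Sca1(+), CD140a(+)/Sca1(-) and CD140a(+)/Sca1(+) cells, against 5.25, 7.07 and 5.30 in control cells. The control values lay within a narrow band and the injured values far above it, with ratios of 13.3 (95% interval 9.11 to 20.3), 26.1 (14.3 to 53.2) and 40.8 (18.6 to 112). The difference was 3.32 on the log2 scale (standard error 0.54, adjusted p = 0.288, limma).

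Tpx2, which activates Aurora A on spindle microtubules, is on chr2:152847964-152895321. Tpx2 was at 84.1, 195 and 380 normalized counts in injured CD140a(-)/Sca1(+), CD140a(+)/Sca1(-) and CD140a(+)/Sca1(+) cells, against 15.0, 29.3 and 12.8 in control cells, and the groups did not overlap. Its difference was 2.78 (standard error 0.61, adjusted p = 0.393, limma). Aurka, the Aurora A kinase itself, is on chr2:172356190-172370535. Aurka was at 15.5, 47.1 and 53.0 normalized counts in injured cells, against 4.69, 7.71 and 4.41 in control cells in the same order. All injured values were above all control values, with the smallest gap in CD140a(-)/Sca1(+). Its difference was 1.62 (standard error 0.52, adjusted p = 0.555, limma).

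Cenpe, the kinetochore motor that moves chromosomes to the spindle equator, is on chr3:135212537-135273611. Cenpe had 26.0, 170 and 63.1 normalized counts in injured CD140a(-)/Sca1(+), CD140a(+)/Sca1(-) and CD140a(+)/Sca1(+) cells, against 2.44, 7.71 and 8.83 in control cells. Here the highest library was injured CD140a(+)/Sca1(-), unlike for most members. The difference was 2.36 (standard error 0.56, adjusted p = 0.425, limma). Foxm1, a transcription factor of G2/M genes, is on chr6:128362967-128376146. Foxm1 had 25.3, 86.4 and 111 normalized counts in injured cells, against 11.1, 21.8 and 8.83 in control cells in the same order. The lowest injured value, in CD140a(-)/Sca1(+), lay just above the highest control value, in CD140a(+)/Sca1(-). Its difference was 1.69 (standard error 0.57, adjusted p = 0.564, limma).

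**Figure D2:**
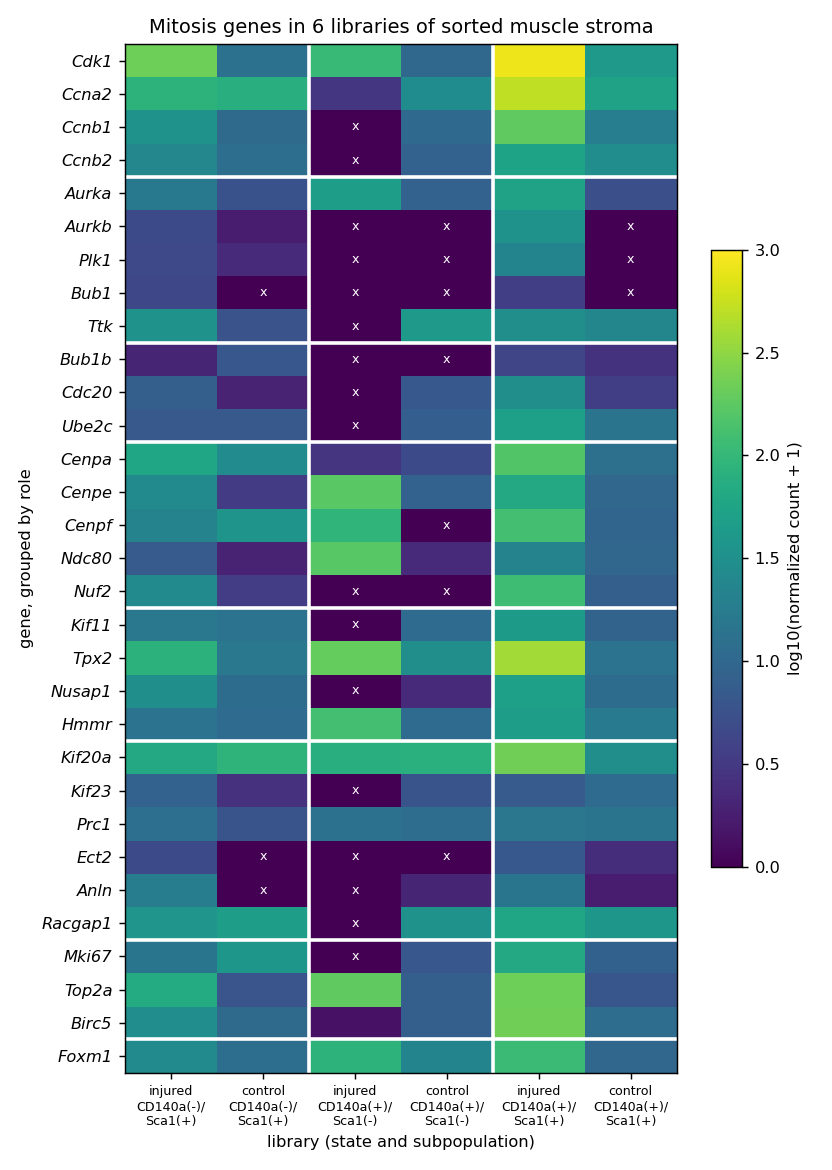
Normalized counts of the 31 mitosis genes (rows, grouped by role between white lines) in the 6 libraries (columns, injured left of control), as log10 of the normalized count plus 1, with a white x where a gene is listed at 0. The injured CD140a(+)/Sca1(+) column is the brightest, with Cdk1 at 845, and 17 of 31 genes in the injured CD140a(+)/Sca1(-) column carry an x.

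The promoters of these genes share a feature that the choice of the list did not use. The cell cycle genes homology region, bound by the DREAM/MuvB complex, has the core TTTGAA or, less often, the variant TTCGAA, and it usually lies near the start of transcription, downstream of CCAAT boxes bound by NF-Y. Promoters from 250 bases before to 50 bases after the gene start were given by RefSeq (GRCm38.p6) for 26 of the 31 genes, and 27025 promoters of the mouse genome were searched on both strands. TTTGAA was found in 20 of the 26 member promoters, or 76.9%, and in 18.1% of all promoters. Within the last 150 bases, from 100 before to 50 after the start, it was in the same number of members, 20, and in 8.1% of all promoters. TTCGAA was found in 3 members (11.5%, against 1.6% of all promoters) and CCAAT in 21 (80.8%, against 37.9% of all). TTTCGCG, an E2F motif, was found in 1 member (3.8%, against 0.8% of all). Of 30 matches to the cell cycle cores, 21 lay between 50 bases before and 50 after the start, and of 50 matches to CCAAT 33 lay within the 100 bases before it. Sequence matches are a description of these windows and were not tested as binding sites.

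The last 150 bases of 8 member promoters are shown, with capitals marking each match, on either strand, to the core TTTGAA, to its variant TTCGAA and to the box CCAAT. Cdk1 (chr10:69352863-69353012, minus strand), Top2a (chr11:99024140-99024289, minus strand), Aurka (chr2:172370521-172370670, minus strand) and Cenpe (chr3:135212463-135212612, plus strand) are the called genes with a promoter entry. Ccnb2 (chr9:70421505-70421654, minus strand), Plk1 (chr7:122159335-122159484, plus strand), Cdc20 (chr4:118437294-118437443, minus strand) and Ndc80 (chr17:71526808-71526957, minus strand) stand for a cyclin, a kinase, an APC/C partner and a kinetochore gene.
Cdk1: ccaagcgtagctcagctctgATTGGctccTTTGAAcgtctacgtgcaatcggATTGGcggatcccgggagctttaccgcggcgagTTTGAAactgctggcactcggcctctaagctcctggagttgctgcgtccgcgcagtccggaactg
Top2a: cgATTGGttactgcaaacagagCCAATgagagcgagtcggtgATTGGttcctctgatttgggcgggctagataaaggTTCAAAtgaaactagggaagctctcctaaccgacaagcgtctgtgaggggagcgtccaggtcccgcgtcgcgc
Aurka: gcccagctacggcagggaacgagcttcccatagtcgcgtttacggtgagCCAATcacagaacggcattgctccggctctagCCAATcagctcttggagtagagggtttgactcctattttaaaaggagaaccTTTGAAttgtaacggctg
Cenpe: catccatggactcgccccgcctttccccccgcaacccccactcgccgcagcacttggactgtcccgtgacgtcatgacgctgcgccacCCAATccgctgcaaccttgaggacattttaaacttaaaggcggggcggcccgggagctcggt
Ccnb2: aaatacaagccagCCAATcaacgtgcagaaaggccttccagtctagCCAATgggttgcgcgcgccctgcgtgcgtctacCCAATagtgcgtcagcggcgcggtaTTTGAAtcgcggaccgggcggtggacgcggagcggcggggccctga
Plk1: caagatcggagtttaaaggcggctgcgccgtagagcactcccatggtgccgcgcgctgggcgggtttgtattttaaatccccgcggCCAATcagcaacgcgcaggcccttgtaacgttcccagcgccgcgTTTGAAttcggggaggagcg
Cdc20: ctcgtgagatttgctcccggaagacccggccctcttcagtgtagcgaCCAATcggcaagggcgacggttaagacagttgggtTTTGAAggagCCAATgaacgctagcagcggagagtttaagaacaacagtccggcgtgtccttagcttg
Ndc80: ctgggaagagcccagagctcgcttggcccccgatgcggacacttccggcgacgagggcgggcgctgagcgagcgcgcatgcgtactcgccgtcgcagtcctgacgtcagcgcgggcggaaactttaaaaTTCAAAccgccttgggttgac
Counted from the 5′ end of these windows, TTTGAA or its reverse complement starts at position 30 and again at 86 in Cdk1, at 78 in Top2a, at 133 in Aurka, at 105 in Ccnb2, at 131 in Plk1, at 83 in Cdc20 and at 130 in Ndc80. The Cenpe window holds no match to the cell cycle cores and 1 CCAAT, at 89, and the Ndc80 window holds no CCAAT. Top2a and Ccnb2 hold 3 CCAAT each, before their cell cycle core. Among members whose promoters are not shown, Ccnb1, Nusap1, Birc5 and Nuf2 held no match to the cell cycle cores in the full window. Of these only Ccnb1 held CCAAT.

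The cyclins that bind Cdk1 differed between subpopulations. Ccna2 (cyclin A2, which partners Cdk1 in G2) had 85.5, 1.96 and 521 normalized counts in injured CD140a(-)/Sca1(+), CD140a(+)/Sca1(-) and CD140a(+)/Sca1(+) cells, against 75.4, 27.6 and 52.1 in control cells. It was far higher after injury in CD140a(+)/Sca1(+), with a ratio of 10.01 (95% interval 7.69 to 13.3), close to its control in CD140a(-)/Sca1(+), with a ratio of 1.13 (0.998 to 1.29), and lower in CD140a(+)/Sca1(-). Ccnb1 (cyclin B1) had 33.5, 0 and 186 in injured cells, against 9.84, 9.53 and 18.1 in control cells. Ccnb2 (cyclin B2) had 23.5, 0 and 54.0 in injured cells, against 11.2, 7.71 and 28.2 in control cells. Both B cyclins were thus above their controls in the Sca1(+) subpopulations and without a read in injured CD140a(+)/Sca1(-), the library that lists most genes at 0. The summed counts of Cdk1 and the 3 cyclins were 361, 106 and 1606 in injured cells, against 109, 53.9 and 139 in control cells, in the order CD140a(-)/Sca1(+), CD140a(+)/Sca1(-), CD140a(+)/Sca1(+).

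Of the 5 mitotic kinases, Aurka was called. Plk1 (Polo-like kinase, needed for spindle assembly) had 3.65, 0 and 21.7 normalized counts in injured CD140a(-)/Sca1(+), CD140a(+)/Sca1(-) and CD140a(+)/Sca1(+) cells, against 1.31, 0 and 0 in control cells. In CD140a(+)/Sca1(+) this was at least 8.20-fold higher, against a floor of 3 reads in the control library. Aurkb (Aurora B, the kinase of the chromosomal passenger complex) had 3.66, 0 and 33.5 in injured cells, against 0.751, 0 and 0 in control cells, at least 12.6-fold higher in CD140a(+)/Sca1(+) by the same floor. Both kinases were therefore measured mainly in injured CD140a(+)/Sca1(+) cells. Ttk (Mps1, which starts the spindle checkpoint) had 33.8, 0 and 29.6 in injured cells, against 4.89, 40.7 and 23.0 in control cells. It was highest in a control library. Bub1 (a checkpoint kinase at kinetochores) had 3.51, 0 and 2.65 in injured cells and was listed at 0 in every control library.

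None of the 3 checkpoint effectors and APC/C partners was called. Cdc20, the APC/C activator that the checkpoint holds back, had 7.02, 0 and 29.1 normalized counts in injured CD140a(-)/Sca1(+), CD140a(+)/Sca1(-) and CD140a(+)/Sca1(+) cells, against 0.937, 5.78 and 2.65 in control cells. Its ratio was 7.49 (95% interval 3.00 to 24.1) in CD140a(-)/Sca1(+) and 11.01 (3.57 to 55.0) in CD140a(+)/Sca1(+). Ube2c, the ubiquitin-conjugating enzyme of the APC/C, had 5.95, 0 and 48.5 in injured cells, against 5.94, 6.89 and 13.4 in control cells. Bub1b (BubR1, part of the checkpoint complex) had 1.02, 0 and 3.18 in injured cells, against 5.44, 0 and 1.77 in control cells. In CD140a(-)/Sca1(+) it was lower in injured cells, with a ratio of 0.188 (0.0696 to 0.439). Injured CD140a(+)/Sca1(-) cells had no read of any of the 3 genes.

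The centromere and kinetochore genes summed to 137, 427 and 476 normalized counts in injured CD140a(-)/Sca1(+), CD140a(+)/Sca1(-) and CD140a(+)/Sca1(+) cells, against 67.3, 12.8 and 45.2 in control cells, so in this group injured CD140a(+)/Sca1(-) came close to injured CD140a(+)/Sca1(+). Ndc80, the microtubule-binding subunit of the kinetochore, had 6.29, 164 and 21.2 in injured cells, against 0.937, 1.28 and 8.83 in control cells. Its ratio in CD140a(+)/Sca1(-) was 128, with a wide interval of 34.8 to 1062 because the control held few reads. That interval covers counting error only, and the injured value comes from the library that listed 69.1% of all genes at 0. Nuf2, which forms a dimer with Ndc80 protein, had 25.8, 0 and 114 in injured cells, against 2.53, 0 and 7.01 in control cells. Nuf2 was thus listed at 0 in both CD140a(+)/Sca1(-) libraries. Cenpf, a large kinetochore protein of G2 and mitosis, had 20.9, 91.3 and 124 in injured cells, against 34.5, 0 and 8.54 in control cells. Cenpa, the histone H3 variant of centromeres, had 58.0, 1.90 and 153 in injured cells, against 26.9, 3.77 and 11.97 in control cells. Apart from Cenpe, no gene of this group was called: the differences were 1.95 for Ndc80, 1.54 for Nuf2, 2.16 for Cenpf and 1.15 for Cenpa.

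Of the spindle motors and microtubule binders, Tpx2 was called. Kif11 (the Eg5 motor that pushes spindle poles apart) had 15.1, 0 and 42.4 normalized counts in injured CD140a(-)/Sca1(+), CD140a(+)/Sca1(-) and CD140a(+)/Sca1(+) cells, against 12.7, 10.3 and 7.94 in control cells. Hmmr, a microtubule-associated protein of spindle poles, had 12.7, 126 and 45.6 in injured cells, against 10.3, 10.3 and 15.9 in control cells. Nusap1, which stabilizes microtubules around chromosomes, had 30.1, 0 and 48.3 in injured cells, against 10.4, 1.32 and 10.5 in control cells. In CD140a(+)/Sca1(+) all of them were above their control, and in CD140a(-)/Sca1(+) Kif11 and Hmmr lay close to it, with ratios of 1.18 (95% interval 0.861 to 1.63) and 1.23 (0.870 to 1.76).

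None of the 6 genes of the spindle midzone and of cytokinesis was called. Their sum was 141, 87.8 and 319 normalized counts in injured CD140a(-)/Sca1(+), CD140a(+)/Sca1(-) and CD140a(+)/Sca1(+) cells, against 140, 130 and 92.3 in control cells. Kif20a (a kinesin of the central spindle) had 64.3, 75.6 and 223 in injured cells, against 87.4, 78.4 and 29.1 in control cells. Its ratio was 7.66 (95% interval 5.37 to 11.3) in CD140a(+)/Sca1(+) and 0.736 (0.645 to 0.841) in CD140a(-)/Sca1(+). Racgap1 (a subunit of centralspindlin) had 35.8, 0 and 56.4 in injured cells, against 45.6, 34.2 and 37.5 in control cells. Kif23, the motor subunit of centralspindlin, had 7.79, 0 and 6.27 in injured cells, against 1.66, 5.07 and 10.3 in control cells. Prc1, which bundles midzone microtubules, had 11.5, 12.3 and 14.4 in injured cells, against 5.05, 10.8 and 13.2 in control cells, the smallest ratio between highest and lowest library of the 31 genes. Anln (anillin, a scaffold of the contractile ring) had 17.6, 0 and 13.7 in injured cells, against 0, 1.07 and 0.736 in control cells, at least 31.3-fold higher in CD140a(-)/Sca1(+) by the 3-read floor. Ect2, the exchange factor that activates RhoA at the division plane, had 3.74, 0 and 5.69 in injured cells, against 0, 0 and 1.46 in control cells.

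Of the remaining members, Mki67, which encodes the proliferation antigen Ki-67, had 13.7, 0 and 63.4 normalized counts in injured CD140a(-)/Sca1(+), CD140a(+)/Sca1(-) and CD140a(+)/Sca1(+) cells, against 37.4, 5.49 and 7.55 in control cells. It was above its control in CD140a(+)/Sca1(+) and below it in the other subpopulations, and its difference was -0.08 (standard error 0.79). Birc5 (survivin, of the chromosomal passenger complex) had 28.8, 0.402 and 220 in injured cells, against 10.01, 7.10 and 10.7 in control cells. The difference of Birc5 was 1.11 (standard error 0.90).

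Within each subpopulation, where 1 library was set against 1 library and no test is possible, the 31 genes behaved differently. Here 3-fold is meant on the deposited log2 scale, on which differences of low genes are smaller than those of their counts. In CD140a(+)/Sca1(+) 30 of 31 were higher in injured than in control cells by any amount and 1 lower, beside 54% and 44.5% of all genes tested, and 18 were at least 3-fold higher, beside 10.4%. None was 3-fold lower, beside 6.07%. In CD140a(-)/Sca1(+) 26 were higher and 5 lower, beside 36.8% and 61.3% of all genes, and 7 were at least 3-fold higher, beside 1.97%: Cdk1, Top2a, Anln, Tpx2, Cenpe, Nuf2 and Ttk. None was 3-fold lower there on this scale, beside 4.35%. By normalized counts more genes passed 3-fold there, with ratios such as 7.49 for Cdc20 and 0.188 for Bub1b. In CD140a(+)/Sca1(-) 10 were higher and 15 lower, beside 23.5% and 65% of all genes, and 6 were listed at 0 in both states. There 8 were at least 3-fold higher, beside 8.31% of all genes, and 5 at least 3-fold lower, beside 29.4%. Cdk1, Cenpe, Top2a and Tpx2 were 3-fold higher in all 3 subpopulations, beside 0.605% of all genes, and Nuf2 joined them in both Sca1(+) subpopulations, beside 1.05%. In CD140a(-)/Sca1(+) the median difference of the 31 was 0.86, beside -0.23 for all genes. It was 0.00 in CD140a(+)/Sca1(-), beside -0.76, and 1.98 in CD140a(+)/Sca1(+), beside 0.11.

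**Figure D3:**
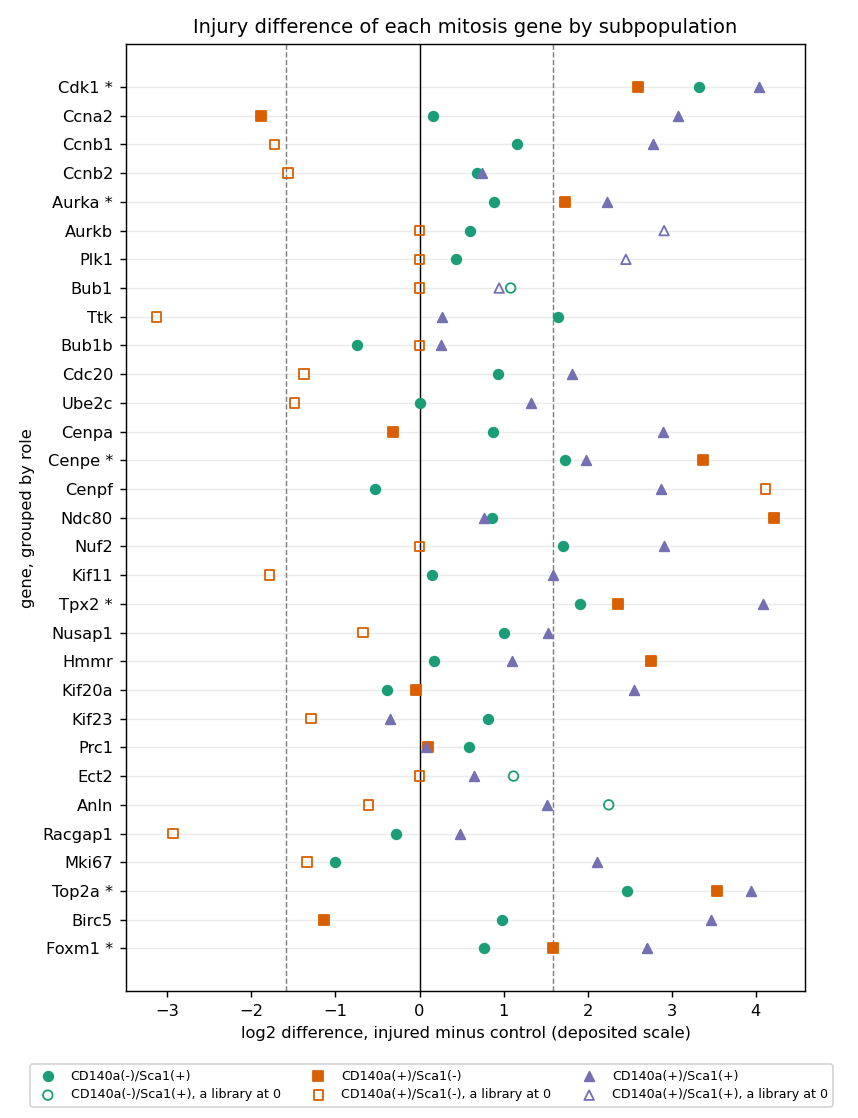
Difference of each mitosis gene between injured and control cells (x axis, log2, deposited scale) in the 3 subpopulations, with genes on the y axis grouped by role, an asterisk at the 6 called genes, hollow marks where either library lists the gene at 0, and dashed lines at 3-fold. The CD140a(+)/Sca1(+) marks lie right of 0 for 30 of 31 genes, while the CD140a(+)/Sca1(-) marks run between -3.13 for Ttk and 4.22 for Ndc80.

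The injured CD140a(+)/Sca1(-) library split the members sharply. In it 11 genes had between 12.3 and 195 normalized counts, 3 had between 0.402 and 1.96, and 17 were listed at 0, where the control library of the same subpopulation listed 7 at 0. Its 3-read floor was 2.94 normalized counts, and of the genes at 0 in it only Ttk and Racgap1 had control values above 12 normalized counts. This library listed 55.3% of all genes tested at 0, so the members' share, 17 of 31, does not stand apart from the table. Of 23 members with reads in each of the other 5 libraries, 10 were at 0 in it, beside 43% of such genes. Over all 6 libraries 23 of 31 members were highest in injured CD140a(+)/Sca1(+), beside 21.3% of all genes. Bub1 and Anln were highest in injured CD140a(-)/Sca1(+), beside 11.9%, and Cenpe, Hmmr and Ndc80 in injured CD140a(+)/Sca1(-), beside 14.2%. The rest were highest in control libraries: Bub1b in CD140a(-)/Sca1(+), Ttk in CD140a(+)/Sca1(-) and Kif23 in CD140a(+)/Sca1(+), beside 17.8%, 14.7% and 20.1% of all genes.

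Differences between subpopulations, whatever the state, were tested in the same fit by setting each against the mean of the other 2. In CD140a(+)/Sca1(-) 5 members were lower, beside 3.73% of all genes: Ccna2 by a log2 difference of -2.69, Nuf2 of -2.37, Cenpa of -2.27, Nusap1 of -2.09 and Ccnb2 of -1.86. None was higher, beside 0.657%. In CD140a(+)/Sca1(+) Nuf2 (2.07) and Cdk1 (1.86) were higher, beside 1.32% of all genes, and none was lower, beside 0.47%. In CD140a(-)/Sca1(+) no member was called in either direction, beside 1.33% higher and 0.283% lower. No member had an adjusted p under 0.05 in limma, where the lowest was 0.615 for CD140a(+)/Sca1(-), and the counts of CD140a(+)/Sca1(-) and CD140a(+)/Sca1(+) ran from 0 to 17 and from 0 to 12 when single libraries were left out, with both upper values reached without control CD140a(+)/Sca1(-). The 5 lower members of CD140a(+)/Sca1(-) became 1 without injured CD140a(+)/Sca1(-), 0 without either CD140a(-)/Sca1(+) library or without injured CD140a(+)/Sca1(+), and 0 without the filter on low values. For the fits with a library left out, the share of all genes called is not given here, so those member counts are not set apart from the table. At an unadjusted p under 0.05 alone, Cdk1 was lower in CD140a(+)/Sca1(-) as well, by -1.40, which is under the 3-fold limit.

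Lists of other cell cycle genes were set beside the members. Of 39 DNA replication and S phase genes tested, 8 were called higher and 0 lower, beside 2.3% and 3.46% of all genes, and without the CD140a(+)/Sca1(-) pair 12 were higher, beside 2.94%. Rrm2, a subunit of ribonucleotide reductase, had 50.6, 145 and 169 normalized counts in injured CD140a(-)/Sca1(+), CD140a(+)/Sca1(-) and CD140a(+)/Sca1(+) cells, against 6.93, 3.85 and 21.2 in control cells. Mcm5, of the replicative helicase, had 174, 419 and 866 in injured cells, against 62.6, 58.5 and 115 in control cells. Mcm4, of the same helicase, and E2f1, a transcription factor of S phase genes, rose by 2.49 and 2.13 on the log2 scale. In CD140a(+)/Sca1(+) 27 of the 39 were at least 3-fold higher in injured cells, beside 10.4% of all genes, 2 in CD140a(-)/Sca1(+), beside 1.97%, and 8 in CD140a(+)/Sca1(-), beside 8.31%. In CD140a(+)/Sca1(-) 8 others were 3-fold lower, beside 29.4% of all genes.

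Among the other mitosis lists, 4 of 21 spindle and cytokinesis genes were called higher, namely Arhgap11a, Kif22, Kif14 and Fam83d, and 4 of 21 other G2/M regulators, namely Melk, Cdkn3, Cdca3 and Espl1. Melk, a kinase of dividing cells, had 6.26, 167 and 44.3 normalized counts in injured CD140a(-)/Sca1(+), CD140a(+)/Sca1(-) and CD140a(+)/Sca1(+) cells, against 0, 0 and 0.879 in control cells. Of 31 other kinetochore and centromere genes 2 were higher, Cenpm by 2.21 and Sgo1 (shugoshin, which protects cohesion) by 2.01. Of 8 condensin genes 1 was higher, Smc4 by 2.02, with 129, 641 and 592 normalized counts in injured cells, against 35.0, 93.0 and 160 in control cells. No gene of these lists was called lower. The same rule called 2.3% of all genes higher. Without the CD140a(+)/Sca1(-) pair the counts of higher genes were 8, 4, 6 and 3 in the same order, beside 2.94% of all genes.

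The APC/C subunits, which are present through the cell cycle, gave 0 of 13 calls in either direction, beside 2.3% higher and 3.46% lower of all genes. Anapc5 had 452, 493 and 284 normalized counts in injured CD140a(-)/Sca1(+), CD140a(+)/Sca1(-) and CD140a(+)/Sca1(+) cells, against 265, 339 and 244 in control cells, a difference of 0.49. Of 10 D cyclins and CDK inhibitors tested, 0 were called higher and 2 lower, beside 3.46% of all genes called lower. Cdkn1a, which encodes the CDK inhibitor p21, fell by 3.15 on the log2 scale, with 1003, 326 and 198 normalized counts in injured cells, against 4305, 2116 and 5471 in control cells, and its groups did not overlap. Cdkn1b (p27) fell by 2.25, with 6.03, 0 and 13.6 in injured cells, against 15.2, 57.0 and 126 in control cells. Without the CD140a(+)/Sca1(-) pair the list also had 2 lower genes, beside 2.65% of all genes. In the DREAM and RB family list 1 of 15 was called lower, beside 3.46% of all genes. Rb1, the retinoblastoma gene, fell by 1.82, and that call was lost without the CD140a(+)/Sca1(-) pair.

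**Figure D4:**
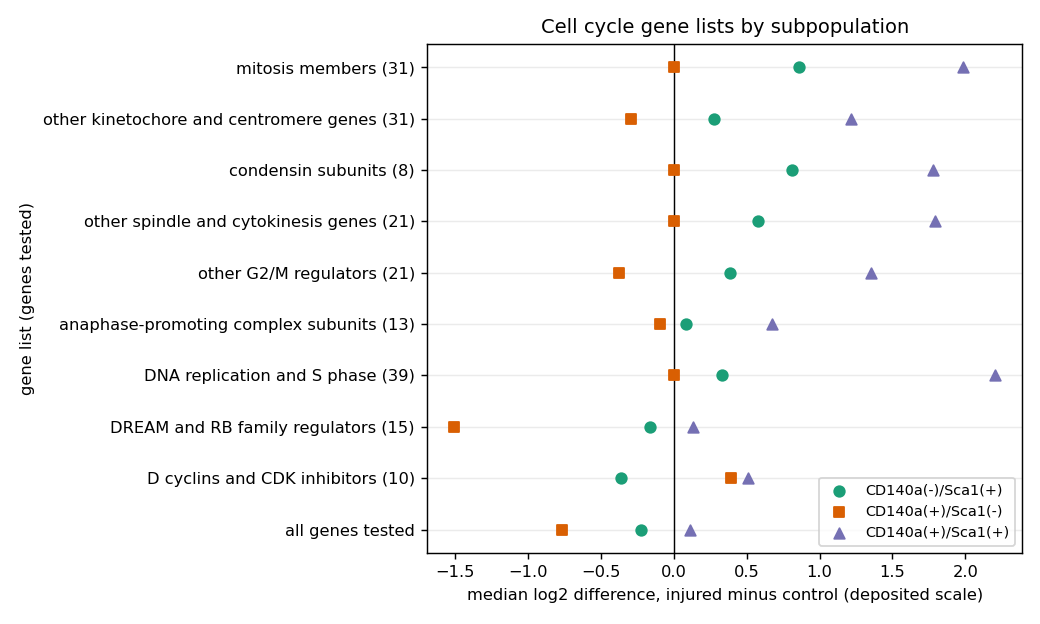
Median difference between injured and control cells (x axis, log2, deposited scale) of each cell cycle list (y axis, genes tested in parentheses) in the 3 subpopulations, with all genes tested in the lowest row. The CD140a(+)/Sca1(+) median is 1.98 for the mitosis genes and 2.21 for the S phase genes, against 0.11 for all genes.

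Markers of other cells moved with the injury state too. By the injury rule 3.46% of all genes tested were called lower and 2.3% higher. Of 12 endothelial markers 9 were called lower and 0 higher, with sums of 51.7 to 350 normalized counts in injured libraries, against 866 to 3504 in control libraries, and Cdh5 and Egfl7 were at 0 in injured CD140a(+)/Sca1(-). Of 8 Schwann cell markers 5 fell, with sums of 2.41 to 17.7 in injured and 47.0 to 1964 in control libraries, and S100b was at 0 in injured CD140a(+)/Sca1(-) cells. Red blood cell markers gave 4 of 6 lower, with sums of 0 to 666 in injured and 697 to 12162 in control libraries. Of 14 leukocyte and macrophage markers 1 rose, Lyz2, with sums of 318 to 930 in injured and 121 to 485 in control libraries, and in CD140a(+)/Sca1(-) the sum was 930 in injured cells, against 195 in control cells. Of the genes for the proteins the gate removed, Ptprc (CD45) had 2.50, 0 and 0.533 in injured CD140a(-)/Sca1(+), CD140a(+)/Sca1(-) and CD140a(+)/Sca1(+) cells, against 20.5, 0 and 0.887 in control cells. Itgam (CD11b) had 22.5, 27.5 and 8.48 in injured cells, against 24.0, 13.5 and 18.5 in control cells, and Pecam1 (CD31) had 1.39, 0 and 1.51 in injured cells, against 47.4, 19.8 and 105 in control cells. Reads of Itgam were thus present in all 6 libraries. Of 17 fibroblast markers 7 rose, among them Col3a1 and Pdgfra, with sums of 56434 to 77805 in injured and 4519 to 20970 in control libraries. Of 9 muscle stem cell and myoblast markers 1 rose, Vcam1, with sums of 530 to 2426 in injured and 298 to 1766 in control libraries. Much of these sums was Vcam1 itself. It had 2180, 1719 and 339 in injured CD140a(-)/Sca1(+), CD140a(+)/Sca1(-) and CD140a(+)/Sca1(+) cells, against 1660, 113 and 40.9 in control cells. Of the 13 such markers in the table, 7, 9 and 7 were listed at 0 in injured CD140a(-)/Sca1(+), CD140a(+)/Sca1(-) and CD140a(+)/Sca1(+) cells, against 4, 6 and 3 in control cells. Among them were Pax7, Myf5 and Myod1, which define the lineage and were picked out after their values were seen. All 3 were at 0 in every injured library. In control cells Pax7 was at 1.31, 3.85 and 6.18, Myod1 at 3.75, 8.35 and 11.5 and Myf5 at 0, 0 and 0.883. These control values were low, and that of Myf5 lay under the 3-read floor of control CD140a(+)/Sca1(+), 2.65. The sum of the whole list went the other way, higher in injured than in control cells in every subpopulation. Of the markers of neutrophils 1 fell (S100a9), of pericytes and smooth muscle 1 rose and 3 fell, of tendon cells 1 rose (Thbs4), and of lymphocytes and myofibers 0 were called. Whether these marker differences reflect cell makeup, and their part in the differences of the mitosis genes, was not tested.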

How the data were processed

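Total RNA of 6 sorted cell samples was made into QuantSeq 3' mRNA libraries for the Ion Proton. Reads were trimmed by the authors (FastX-Toolkit), mapped with STAR on GRCm38/mm10 and counted with BRB-seqtools against Ensembl 90. The deposited values are variance-stabilized log2 values made by the authors with DESeq2, on which a gene without reads stands at 2.57. They were inverted to normalized counts, and the size of 1 read per library was read off the steps between low values, which gave the depth. Of low values, 52.7% to 58.4% per library lay within 0.02 reads of a whole number, so whole reads were not recovered and no count model was run. Exact 95% intervals are given for single genes only where a member lay on whole reads in every library, as 14 did. Intervals on sums took the sum in reads, rounded for ratios, and are approximate.

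Identifiers were matched to symbols for 22453 of 22483 genes, and coordinates are those of GENCODE M21 (GRCm38). Genes whose 80th percentile was at least 8, after the deposited values were put on a linear scale, were tested with limma 3.58.1 in R 4.3.3 (subpopulation as block, moderated variances, prior degrees of freedom 4.11, residual 2), after tests on simulated data. The filter lies close above the floor, and 24 members and 10734 genes passed the same limit on normalized counts, where 15 genes had an adjusted p under 0.05. A call needed an unadjusted p under 0.05 and 3-fold on the deposited scale, and an unadjusted p under 0.01 with 3-fold, which the study's text also gives, was run as an alternative. On this scale differences of low genes are smaller than those of their counts. Subpopulations were contrasted in the same fit. Adjustment was by Benjamini-Hochberg over all genes tested. The p values measure the spread between subpopulations, with 1 library per group.

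The text names all members and the 5 genes most like the members. Of every other list, genes called were selected (at most 4, by size of change, and by mean level where no gene was called). For the APC/C and several marker lists only some or none of the selected genes are named. Pax7, Myf5 and Myod1 were named outside this rule. The members and lists were chosen with earlier results of these data known. Alternatives changed filter, scale, scaling, variance prior, block, threshold and libraries, and the list counts without the CD140a(+)/Sca1(-) pair were added after seeing the data. For 1 marker gene no value is given here. The labels and methods give tibialis anterior as the muscle, while another part of the study's text names gastrocnemius and soleus. Python 3.11.15 with numpy 2.4.6, pandas 2.3.3, scipy 1.17.1 and matplotlib 3.10.9 was used.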

Additional observations from a re-analysis of the deposited data

Results flagged for a closer look

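In 4 members the difference between injured and control cells had opposite signs in different subpopulations, by at least 3-fold each way. The share of all genes with such opposite changes is not given here, so this count is not set apart from the table. Of all genes tested, 29.4% were at least 3-fold lower after injury within the CD140a(+)/Sca1(-) pair of libraries. The double-positive pair had 10.4% of all genes at least 3-fold higher, and the CD140a(-)/Sca1(+) pair had 1.97%. Ccna2 stood at -1.88 in CD140a(+)/Sca1(-) and at 3.07 in CD140a(+)/Sca1(+) on the deposited log2 scale. Ccnb1 stood at -1.72 in CD140a(+)/Sca1(-) and at 2.78 in CD140a(+)/Sca1(+). Ttk stood at 1.65 in CD140a(-)/Sca1(+) and at -3.13 in CD140a(+)/Sca1(-). Kif11 stood at -1.78 in CD140a(+)/Sca1(-) and at 1.59 in CD140a(+)/Sca1(+). With 1 library per subpopulation and state, these differences between subpopulations were not tested, and in each case the lower value was in the injured library that listed 69.1% of all genes at 0.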

How the results depend on the processing

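The 6 members called higher after injury became 11 with quantile normalization (beside 2.8% of all genes), 3 with ordinary variances (0.734%), 4 at p under 0.01 (0.927%) and 0 at an adjusted p under 0.05, and between 4 and 12 when a pair or library was left out: 12 without the CD140a(+)/Sca1(-) pair (2.94%), 4 without the CD140a(+)/Sca1(+) pair (1.18%: Top2a, Cdk1, Cenpe and Tpx2) and 7 without the CD140a(-)/Sca1(+) pair (2.58%: Aurka, Cenpf and Foxm1 beside those 4). As run, 2.3% of all genes were called higher. No member was called lower under any alternative run. Leaving out 1 library of a pair gives the same injury estimate as leaving out the pair, and for the injury effect the count without the replicate block stayed within 1.5 times of 6. The labels number no replicates, and the block is the subpopulation or the state.

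Subpopulation counts were less stable. The share of all genes called under each alternative is not given for them, so they are not set apart from the table. Without control CD140a(+)/Sca1(-), that subpopulation is left with only the injured library that lists most genes at 0. The 5 members lower in CD140a(+)/Sca1(-) became 0 without a filter, 2 with 75th percentile scaling, 3 with quantile normalization, and 0 with ordinary variances, at p under 0.01 and at an adjusted p under 0.05, and 0 to 17 with single libraries left out (17 without control CD140a(+)/Sca1(-), 10 without control CD140a(+)/Sca1(+), 1 without injured CD140a(+)/Sca1(-), and 0 without either CD140a(-)/Sca1(+) library or injured CD140a(+)/Sca1(+)). The 2 higher in CD140a(+)/Sca1(+) became 1 without a filter, with a pseudocount of 0.5, with 75th percentile scaling and with no replicate block, 4 with quantile normalization, 0 with ordinary variances, at p under 0.01 and at an adjusted p under 0.05, and 0 to 12 with single libraries left out (12 without control CD140a(+)/Sca1(-), 9 without control CD140a(+)/Sca1(+)). With single libraries left out, members higher in CD140a(-)/Sca1(+) ran from 0 to 1, lower in CD140a(-)/Sca1(+) from 0 to 2 and higher in CD140a(+)/Sca1(-) from 0 to 3.

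Within CD140a(-)/Sca1(+), the 7 members at least 3-fold higher became 13 with a pseudocount of 1 and 15 with 0.5, and the 0 members 3-fold lower became 1 under both. Within CD140a(+)/Sca1(-), the 5 members 3-fold lower became 11 and 13 with these pseudocounts, 3 with 75th percentile scaling and 2 with quantile normalization. The share of all genes past 3-fold under these settings is not given here, so these counts are not set apart from the table. The log2 ratio of the sums in CD140a(-)/Sca1(+), 1.13, became 1.30 with 75th percentile scaling, 1.25 with median ratio scaling, 1.25 as a share of all counts and 0.79 without the 3 highest members. In CD140a(+)/Sca1(-) 1.85 became 4.30 with 75th percentile scaling, where the factor of the injured library is set by its many genes at 0. In CD140a(+)/Sca1(+) 3.22 became 2.74 with 75th percentile scaling, so the order of CD140a(+)/Sca1(-) and CD140a(+)/Sca1(+) turned, 2.88 with median ratio scaling and 2.76 without the 3 highest members. In the 150-base window TTCGAA was in 1 member and TTTCGCG in 0.

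The sign of 13 members, none of them called, depended on the setting. With libraries left out, Mki67 ran between -1.17 and 0.55, Ccna2 between -0.86 and 1.62, Ccnb1 between -0.28 and 1.97, Ccnb2 between -0.44 and 0.71, Bub1b between -0.37 and 0.13, Ttk between -1.43 and 0.96, and Cdc20 between -0.22 and 1.37. Kif11 ran between -0.82 and 0.87, Kif20a between -0.22 and 1.25, Kif23 between -0.82 and 0.23, Birc5 between -0.076 and 2.23, Ube2c between -0.74 and 0.66, and Racgap1 between -1.61 and 0.10. Quantile normalization gave 0.091 for Mki67, 0.085 for Ccnb2, 0.081 for Bub1b, 0.13 for Kif11 and 0.11 for Ube2c, and a pseudocount of 0.5 gave -0.0069 for Ccna2. The median of all genes, -0.33, was -0.16 with 75th percentile scaling, -0.14 with quantile normalization and -0.58 with a pseudocount of 1, and the share of higher genes among all calls, 39.9%, was 57%, 47% and 25.8%. The cause of these shifts was not tested.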

Other observations

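Over the 6 libraries, the genes outside the lists whose values were most like the mean log2 value of the 31 mitosis genes were Cntrob (Pearson r = 0.994), Steap1 (0.992), Actr3b (0.992), Emilin1 (0.989) and Iqgap3 (0.988). These correlations over 6 libraries, which differ in depth, describe the table and carry no p. Cntrob, which encodes a centriole protein, had 3.69, 0 and 25.4 normalized counts in injured CD140a(-)/Sca1(+), CD140a(+)/Sca1(-) and CD140a(+)/Sca1(+) cells, and was listed at 0 in every control library. Steap1, which encodes a protein of the cell membrane, had 59.7, 11.7 and 225 in injured cells, against 14.5, 6.67 and 10.5 in control cells. Emilin1, a glycoprotein of elastic fibers, had 16.7, 0.981 and 60.4 in injured cells, against 1.87, 1.93 and 3.53 in control cells. Iqgap3, a scaffold protein of dividing cells, had 6.86, 0 and 29.8 in injured cells and was listed at 0 in every control library.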
